A study of Mus musculus with 4 samples.

Results

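The DNA replication genes described here are 47 genes whose products load, start, run and supply the replication fork, from the origin recognition complex to the enzymes of nucleotide supply. They were listed by name, with earlier results of these data known, and all 47 were found among the 12067 genes of the count table. The cells were KL cells of donor origin, myeloid progenitors of the marrow that carry c-Kit but neither lineage markers nor Sca-1 (CD45.2+Lin-cKIT+Sca-1-). They were sorted 20 weeks after whole marrow had been given to irradiated Ptprca recipients, which carry the CD45.1 marker. The BcorΔE9-10 donors are labelled scl-Cre-ERT + with Bcorfl/y and the BcorWT donors Bcorfl/y, so that all donors carried the floxed Bcor allele and only the former carried Cre. Each genotype had 2 libraries. Cre is driven by the stem cell enhancer of Tal1 and acts after tamoxifen, which the methods of the study give for animals 3 to 6 months of age. The methods state that males were used for molecular work. Excision of exons 9 and 10 of Bcor, which encodes a subunit of a variant Polycomb complex, leaves a truncated protein. The labels do not say how many donors or recipients contributed to a library, so p-values measure only the spread between these libraries.

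Before a cell enters S phase, the origin recognition complex, Cdc6 and Cdt1 place the ring-shaped MCM helicase on origins, a step called licensing, and Gmnn (geminin) blocks a repeat of it. Cdc45 and the GINS complex then turn the ring into a running helicase, polymerases copy the strands with the help of the Pcna clamp, and ribonucleotide reductase and its partners supply the nucleotides. Many of these genes are textbook targets of E2F transcription factors, and myeloid progenitors are among the dividing cells of the marrow. In bulk RNA, fewer cycling cells and less RNA per cell cannot be told apart.

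E2F factors are known to act through short words in promoters, and the stretches upstream of 5 genes whose values are described below are shown to compare them for such words. RefSeq (GRCm38.p6) supplied a promoter for 39 of the 47 genes. Rfc2, Gmnn, Mcm4, Gins4, Pole, Gins1, Gins2 and Prim2 had no entry. Each line gives the 250 bases before the start in the RefSeq entry, 5′ to 3′ on the strand of the gene. This start can differ from that of the GENCODE gene, whose coordinates are given for single genes below. Capitals mark TTTCGCGC or TTTGGCGC on either strand. Other forms of the E2F word were not searched, so a stretch without capitals can still hold one. The stretches lie at chr4:108579204-108579453 (plus strand) for Orc1, chr4:34614943-34615192 (minus strand) for Orc3, chr6:88898781-88899030 (minus strand) for Mcm2, chr8:75109259-75109508 (plus strand) for Mcm5 and chr1:128359706-128359955 (minus strand) for Mcm6.
Orc1: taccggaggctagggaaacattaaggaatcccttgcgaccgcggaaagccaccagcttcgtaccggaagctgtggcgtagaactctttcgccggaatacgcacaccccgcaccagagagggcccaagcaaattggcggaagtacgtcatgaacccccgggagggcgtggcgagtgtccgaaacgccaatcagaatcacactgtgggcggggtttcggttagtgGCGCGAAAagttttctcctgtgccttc
Orc3: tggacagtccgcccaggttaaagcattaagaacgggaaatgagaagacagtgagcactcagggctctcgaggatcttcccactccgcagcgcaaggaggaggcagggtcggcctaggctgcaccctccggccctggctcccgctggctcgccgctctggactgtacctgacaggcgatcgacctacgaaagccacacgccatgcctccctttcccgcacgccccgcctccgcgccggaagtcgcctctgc
Mcm2: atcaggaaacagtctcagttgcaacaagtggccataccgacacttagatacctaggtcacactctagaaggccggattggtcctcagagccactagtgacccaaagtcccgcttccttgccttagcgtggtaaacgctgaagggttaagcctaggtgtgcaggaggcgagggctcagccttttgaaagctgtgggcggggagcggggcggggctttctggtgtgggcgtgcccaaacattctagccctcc
Mcm5: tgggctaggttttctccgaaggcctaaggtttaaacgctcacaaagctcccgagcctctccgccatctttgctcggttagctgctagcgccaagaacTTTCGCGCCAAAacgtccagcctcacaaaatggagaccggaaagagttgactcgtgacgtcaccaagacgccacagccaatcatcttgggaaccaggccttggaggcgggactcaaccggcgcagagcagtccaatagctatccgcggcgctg
Mcm6: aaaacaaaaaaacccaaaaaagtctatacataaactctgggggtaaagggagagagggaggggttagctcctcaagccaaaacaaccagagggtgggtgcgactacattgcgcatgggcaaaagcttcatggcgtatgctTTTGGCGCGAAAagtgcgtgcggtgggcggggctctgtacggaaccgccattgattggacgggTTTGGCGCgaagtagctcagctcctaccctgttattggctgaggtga

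In Mcm5 and in the upstream block of Mcm6, matches of the 2 words on opposite strands overlap and are shown as 1 run of capitals. Over the 300 bases from 250 before to 50 after the start, 10 of the 39 genes (25.6%) held either word, against 166 of the 8396 genes of the count table with a promoter entry (1.98%) and 251 of all 27025 genes of the reference (0.929%). A gene counts here if any of its promoters holds the word, and 6 of the 39 have more than 1 promoter. The 10 genes were Cdt1, Lig1, Mcm3, Mcm5, Mcm6, Mcm7, Orc1, Pola1, Pole2 and Rfc3. CCAAT, on either strand, was found in 23 of the 39 genes (59.0%), against 42.8% of the genes of the table. TTTGAA was found in 5 (12.8%), against 14.5%. These are matches of letters in a window and do not mark a bound site.

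In their summed level, the replication genes did not differ between the genotypes by more than the libraries of a genotype differed from each other. Their levels, given as CPM (counts scaled to the total of each library with TMM factors), summed to 4561 and 3868 CPM in BcorΔE9-10 replicates 1 and 2 and to 3998 and 4486 CPM in BcorWT replicates 1 and 2. The ranges of the genotypes overlap. The log2 ratio of the genotype means was -0.01, with an SD of 0.17 over the 4 single pairings of a BcorΔE9-10 with a BcorWT library. Gene by gene, the median absolute log2 difference between the genotype means was 0.31. That lay above the 0.24 between the BcorΔE9-10 libraries and below the 0.56 between the BcorWT libraries. No gene of the 47 passed an adjusted p under 0.05 in the quasi-likelihood test of edgeR, where the smallest adjusted p was 0.945, against 2 of 12067 genes (0.0166%) over the whole table. At an unadjusted p under 0.05, 1 of the 47 passed, against 4.42% of all genes, and DESeq2 and limma-voom called none of the 47 after adjustment.

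The fitted log2 fold change of BcorΔE9-10 against BcorWT was above 0 for 32 of the 47 genes, against 47.7% of all genes. Its median was 0.13, against -0.03 over all genes, and it lay between 0.01 and 0.26 in the single pairings of libraries (SD 0.10). The values ran from -0.78 for Mcm2 to 1.12 for Rpa3. For 11 genes both BcorΔE9-10 libraries lay above both BcorWT libraries (background 16.8% of all genes), and for 4 genes both lay below (background 17.1%). The other 32 overlapped. After the correction for GC content described below, 10 of the 47 genes did not overlap (background 32.5% for both directions). All 10 were among the 15 genes above, while Orc1, Cdc6, Pold2, Pold3 and Pole then overlapped. Leaving out 1 of the 4 libraries moved the log2 fold change of 12 of the 15 by more than 1.5 times, and of 9 of them through a BcorWT library. The values then ran from 0.16 to 0.46 for Cdt1, 0.28 to 0.67 for Mcm10, 0.20 to 0.80 for Pola2, 0.21 to 0.48 for Pold3, 0.34 to 0.82 for Rfc1, -0.67 to -0.32 for Pold2 and -0.65 to -0.13 for Pole. With 2 libraries against 2, a permutation test of a single gene cannot go below p = 0.333. The intervals show how little this design resolves, as even Tyms, with nearly equal levels in all libraries, had a 95% interval from -0.75 to 0.64 on the log2 scale.

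**Figure D1:**
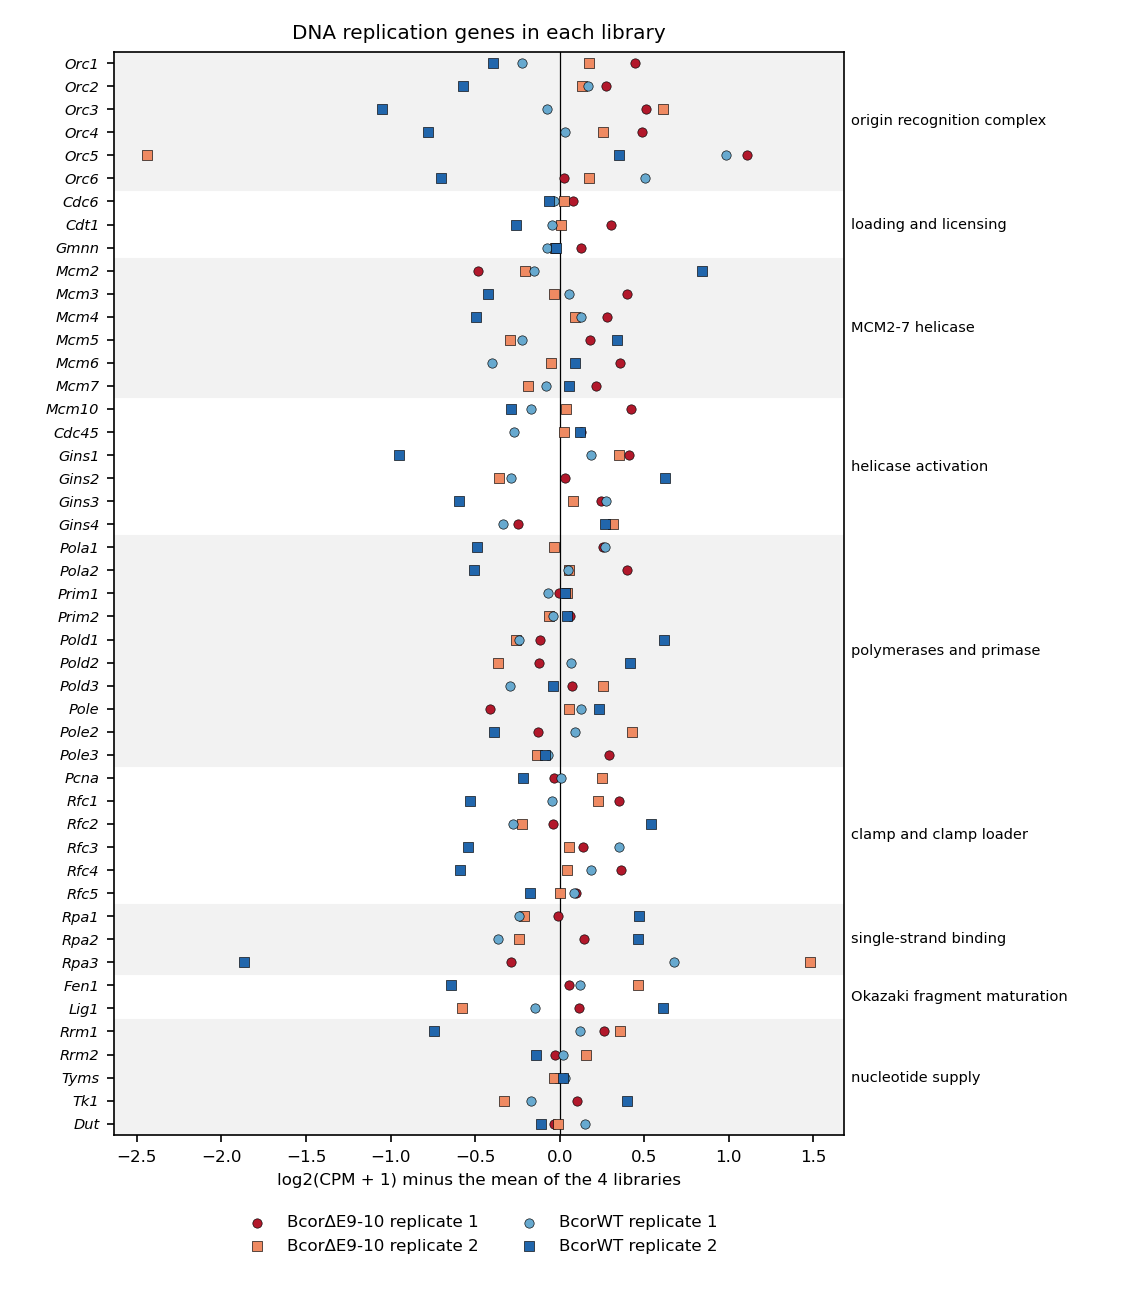
Level of each of the 47 DNA replication genes in each of the 4 libraries, as log2(CPM + 1) minus the mean of the gene over the libraries, grouped by role. BcorWT replicate 2 (dark blue squares) sits at an end of the row for 36 genes, and Orc5 and Rpa3 have the widest rows.

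BcorWT replicate 2 stood apart in these genes much as it did over the whole table. It held the lowest value of 25 and the highest value of 11 of the 47 genes, 36 in all (76.6%), against 70.5% of all genes. The median absolute log2 difference of the 47 genes was 0.56 between the BcorWT libraries and 0.24 between the BcorΔE9-10 libraries, against 0.54 and 0.29 over all genes. The Pearson correlation of log2(CPM + 1) over the 47 genes gave another order, at 0.93 between the BcorWT libraries and 0.90 between the BcorΔE9-10 libraries. BcorWT replicate 1 differed from BcorΔE9-10 replicates 1 and 2 by a median of only 0.23 and 0.16, less than the BcorΔE9-10 libraries differed from each other. The difference from BcorWT replicate 2 was 0.58 and 0.59.

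The labelled cell type and the evenness of the libraries were examined over the whole table. The totals were 5058140 and 6253100.5 counts in the BcorΔE9-10 libraries and 3825289.5 and 4992205 for BcorWT replicates 1 and 2. The 47 genes took 0.488% (95% Wilson interval 0.482 to 0.494) and 0.379% (0.375 to 0.384) of the counts in the BcorΔE9-10 libraries, and 0.358% (0.352 to 0.364) and 0.478% (0.472 to 0.484) in BcorWT. The single transcript Gm42418 took 16.3% (16.29 to 16.35) and 14.3% (14.28 to 14.33) in the BcorΔE9-10 libraries, and 27.9% (27.83 to 27.92) and 1.43% (1.42 to 1.45) in BcorWT. These intervals cover counting error only. Summed levels of 9 myeloid progenitor markers, Mpo and Kit among them, were 11064 and 8454 CPM against 11314 and 11374 CPM. Ly6a, which encodes Sca-1, was at most 3.80 CPM. The measured erythroid markers, 10 of 13 listed, summed to 208 and 187 CPM against 79.4 and 92.2 CPM, and 9 of the 10 were higher in BcorΔE9-10 without overlap. Eosinophil, basophil and mast cell markers summed to 260 and 223 CPM against 490 and 544 CPM, with 7 of 9 lower without overlap. Megakaryocyte markers, 4 measured, stood at 108 and 141 CPM against 110 and 266 CPM, and late neutrophil markers at 63434 and 155322 CPM against 94572 and 143888 CPM. The late neutrophil sums lay far above those of the progenitor markers in every library, which lineage-negative progenitors would not lead one to look for. Of the 8 late neutrophil markers, 7 differed by more than 1 on the log2 scale between the BcorΔE9-10 libraries. The source of these counts was not tested. Monocyte and dendritic markers, 8 of 9 measured, summed to 307 and 260 CPM against 361.5 and 410.04 CPM, and 5 of the 8 were lower without overlap, against 16.8% higher and 17.1% lower over all genes. The part of these markers in the replication genes was not tested. Bcor had 104 and 113 counts in the BcorΔE9-10 libraries and 58 and 79 in BcorWT, but these libraries are primed at the 3′ end and the position of its reads was not examined, so the counts do not check the genotype.

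The origin recognition complex, the 6-subunit platform that marks origins, had the highest median log2 fold change of the 9 roles, 0.54, with 5 of its 6 genes above 0. Without BcorWT replicate 2 the median was 0.21, below the 0.28 of helicase activation. Orc3 (ENSMUSG00000040044, chr4:34570796-34614944 on GRCm38, minus strand) encodes a core subunit. It stood at 28.1 and 30.2 CPM in the BcorΔE9-10 libraries and at 18.4 and 8.84 CPM in BcorWT, so the genotypes did not overlap, and BcorWT replicate 2 was the lowest. Its log2 fold change was 1.11 (SE 0.43, 95% interval 0.12 to 2.10), with an unadjusted p of 0.032 and an adjusted p of 0.945 in edgeR. Orc3 was the only replication gene past a log2 fold change of 0.5 with an unadjusted p under 0.05, a pair of limits that 1.34% of all genes passed upwards and 3.07% downwards.

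Orc1, the ATPase subunit whose level cycles with the cell, was at 11.3 and 9.13 CPM against 6.72 and 5.83 CPM, a log2 fold change of 0.70 (SE 0.46). Orc4, another AAA+ subunit, was at 16.8 and 14.2 CPM against 11.97 and 6.40 CPM, a log2 fold change of 0.77 (SE 0.46, with 0.37 and 1.27 without BcorWT replicates 2 and 1). In these genes too the genotypes did not overlap, but neither passed the test. Orc2 was at 27.5 and 24.8 CPM against 25.4 and 14.9 CPM. Orc6, the subunit outside the core, was at 45.3 and 50.2 CPM against 63.4 and 26.9 CPM, so its highest and its lowest level were both in BcorWT.

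Orc5 had its lowest level in a single BcorΔE9-10 library. It had 418 and 35 counts in BcorΔE9-10 replicates 1 and 2 and 243 and 241 in BcorWT (77.3, 5.71, 71.0 and 45.4 CPM). The log2 fold change was -0.49 (SE 0.90), and it became 0.42 without BcorΔE9-10 replicate 2. Inside Orc5 (chr5:22486485-22550429, minus strand) lies Gm15421, a transcribed processed pseudogene on the same strand at chr5:22528321-22529244, which shares 90 exon bases with Orc5. Gm15421 had 395 and 4 counts in the BcorΔE9-10 libraries and 223 and 151 in BcorWT. If every count of Gm15421 were also a count of Orc5, which was not tested, Orc5 would retain 23 and 31 counts against 20 and 90. At 4.25 and 5.05 CPM against 5.84 and 16.9 CPM, both BcorΔE9-10 libraries would then lie below both BcorWT libraries. These remainders are small, and the same subtraction leaves Fen1 with -13 counts beside Gm10143 in BcorΔE9-10 replicate 1. They are therefore not taken as a level of Orc5. The low value of Orc5 in BcorΔE9-10 replicate 2 goes together with a low value of Gm15421.

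**Figure D2:**
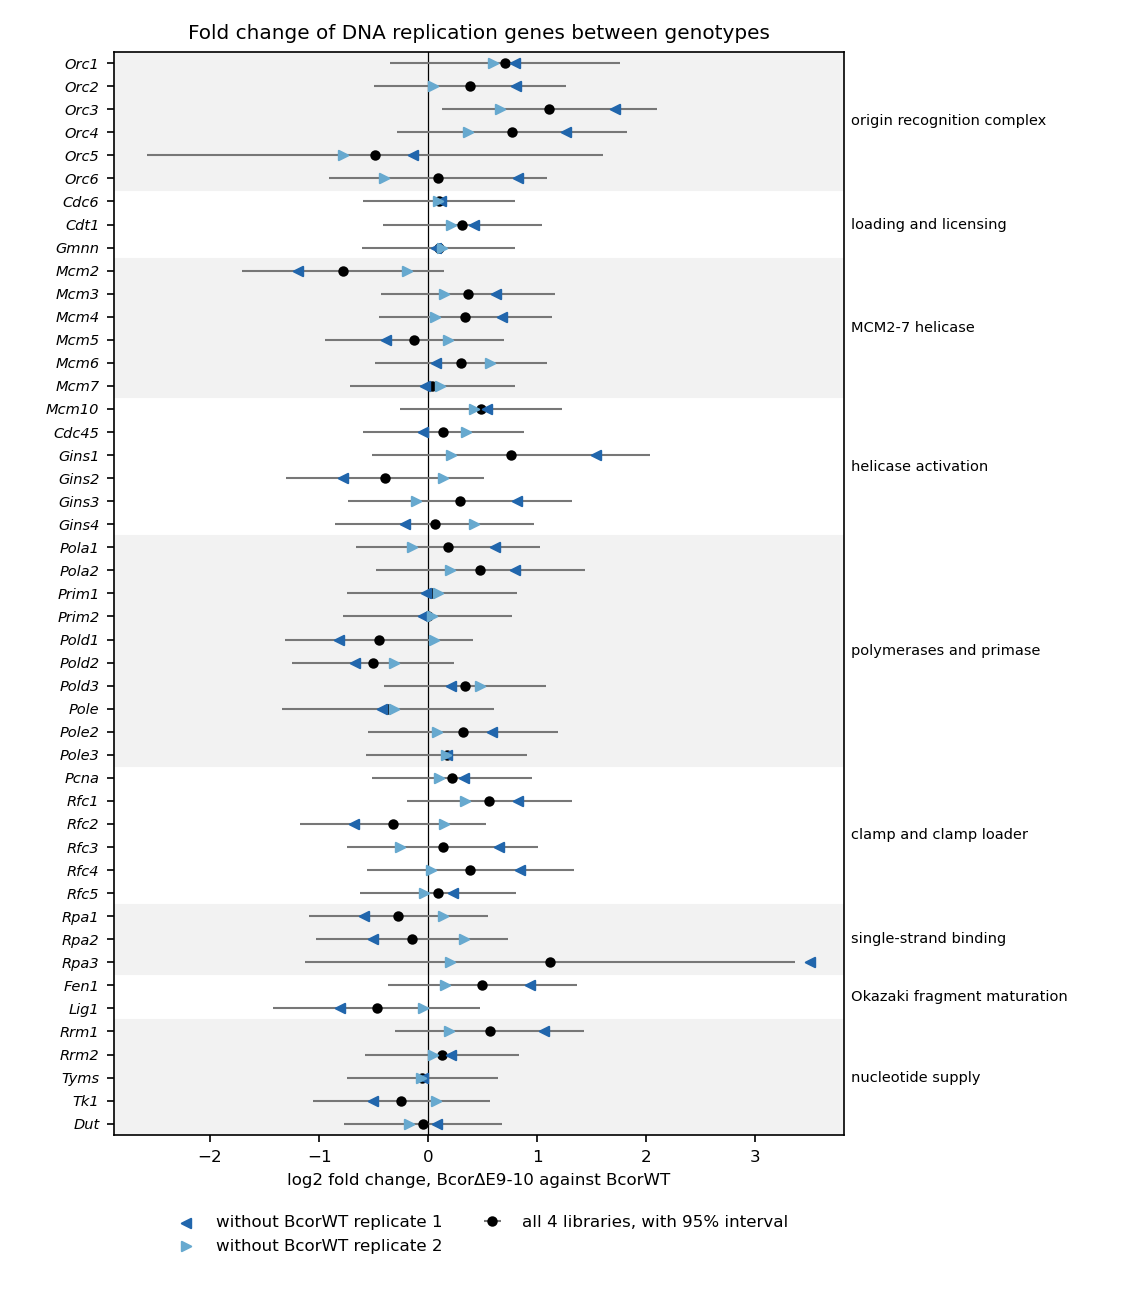
Fitted log2 fold change of BcorΔE9-10 against BcorWT for each of the 47 genes, grouped by role, with all 4 libraries (black points, bars 95% intervals) and without BcorWT replicate 1 or 2 (triangles). The interval of Orc3, from 0.12 to 2.10, is the only interval that does not cross 0, and the triangles of most genes lie on either side of the point.

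The genes of loading and licensing differed least between the BcorWT libraries (median absolute log2 difference 0.05), with summed levels of 319 and 280.5 CPM in the BcorΔE9-10 libraries and 270.4 and 256 CPM in BcorWT. Cdc6, the ATPase that completes the loader, was at 92.6 and 89.2 CPM against 85.6 and 83.7 CPM. Cdt1, which brings the helicase to the origin, was at 142 and 116 CPM against 112 and 96.3 CPM. For both genes the genotypes did not overlap, but the log2 fold changes were only 0.10 (SE 0.30) and 0.31 (SE 0.31). Gmnn, the inhibitor of Cdt1, was at 84.3 and 75.6 CPM against 73.3 and 76.02 CPM, with a log2 fold change of 0.10 (95% interval -0.60 to 0.80).

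The subunits of the MCM helicase, the hexamer that unwinds DNA at the fork, had fitted log2 fold changes on both sides of 0. Their summed levels were 1267 and 1014 CPM in the BcorΔE9-10 libraries and 1035 and 1170 CPM in BcorWT. Mcm2 (ENSMUSG00000002870, chr6:88883474-88898780, minus strand) was at 97.0 and 118 CPM against 123 and 245 CPM, the lowest fold change of the 47 genes, with a log2 fold change of -0.78 (SE 0.40, unadjusted p = 0.0891, adjusted p = 0.945 in edgeR). BcorWT replicate 2 alone was high, at 1304 counts, while BcorWT replicate 1 lay close to BcorΔE9-10 replicate 2.

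Mcm3 and Mcm4 showed the opposite order, with BcorWT replicate 2 the lowest library. Mcm3 was at 268 and 198 CPM against 211 and 151 CPM, and Mcm4 at 189 and 166 CPM against 170 and 110.5 CPM. Mcm5 was at 165 and 119 CPM against 125 and 185 CPM, and Mcm7 at 371 and 280 CPM against 302 and 331 CPM. Mcm6 was at 177 and 133 CPM against 104 and 147 CPM. The genotypes overlapped in these 5 genes, and their log2 fold changes lay between -0.13 for Mcm5 and 0.37 for Mcm3. In BcorWT replicate 2, Mcm2 and Mcm5 were thus at their highest while Mcm3 and Mcm4 were at their lowest. Mcm5 and Mcm6 hold both of the E2F words searched for in the stretches printed above, and Mcm2 holds neither in its window.

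Among the genes of helicase activation, 5 of 6 had a log2 fold change above 0 (median 0.22), and summed levels were 235 and 204 CPM against 186 and 257 CPM. Mcm10, which binds the helicase as the fork starts, was at 50.3 and 38.3 CPM against 33.0 and 30.3 CPM, without overlap (log2 fold change 0.49, SE 0.32). The 4 GINS subunits were split. Gins1 was at 10.7 and 10.3 CPM against 9.05 and 3.58 CPM, also without overlap (log2 fold change 0.76, SE 0.55, with 0.21 and 1.54 without BcorWT replicates 2 and 1), from only 19 counts in BcorWT replicate 2. Gins3 was at 16.6 and 14.7 CPM against 16.9 and 8.84 CPM, and Gins4 at 17.7 and 26.7 CPM against 16.6 and 25.8 CPM. Cdc45, the partner of GINS in the running helicase, was at 44.4 and 41.4 CPM against 33.6 and 44.2 CPM.

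Gins2 was the only gene of this role below 0, at 95.7 and 72.9 CPM against 76.5 and 145 CPM (log2 fold change -0.39, SE 0.39, and 0.14 without BcorWT replicate 2). Gins2 shares 2758 exon bases with Gse1 on the opposite strand. The counts were 518, 447, 262 and 769 for Gins2 and 509, 485, 293 and 793 for Gse1, in the order of the libraries, so the values of Gins2 follow those of Gse1, and which of the genes the reads come from was not tested.

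For the polymerases and primase, 10 genes, the summed levels were 402 and 362 CPM in the BcorΔE9-10 libraries and 376 and 389 CPM in BcorWT. The polymerase alpha and primase complex begins each strand. Pola2, its regulatory B subunit, was at 18.9 and 14.7 CPM against 14.6 and 9.60 CPM, without overlap (log2 fold change 0.48, SE 0.41), and the catalytic subunit Pola1 at 90.7 and 73.8 CPM against 91.4 and 53.6 CPM. The primase genes were level, Prim1 between 19.3 and 20.9 CPM and Prim2 between 20.05 and 21.99 CPM over all 4 libraries.

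Polymerase delta copies the lagging strand, and the fitted values of its subunits lay on both sides of 0. Pold1, the catalytic subunit, was at 57.3 and 51.8 CPM against 52.6 and 96.2 CPM (log2 fold change -0.45, SE 0.37), but its log2 fold change was 0.05 without BcorWT replicate 2 and -0.0056 after the correction for GC content described below. Pold2 was at 37.0 and 31.1 CPM against 42.3 and 54.2 CPM, lower without overlap (log2 fold change -0.51, SE 0.32, and -0.16 after the GC correction). Pold3 was at 31.6 and 36.0 CPM against 24.2 and 29.2 CPM, higher without overlap (log2 fold change 0.34, SE 0.32). In polymerase epsilon, the enzyme of the leading strand, the catalytic subunit Pole was at 8.32 and 11.9 CPM against 12.6 and 13.5 CPM, lower without overlap (log2 fold change -0.37, SE 0.42). Pole2 was at 20.9 and 31.1 CPM against 24.5 and 17.3 CPM, and Pole3 at 95.4 and 70.9 CPM against 74.2 and 73.4 CPM. None of these genes passed the test.

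**Figure D3:**
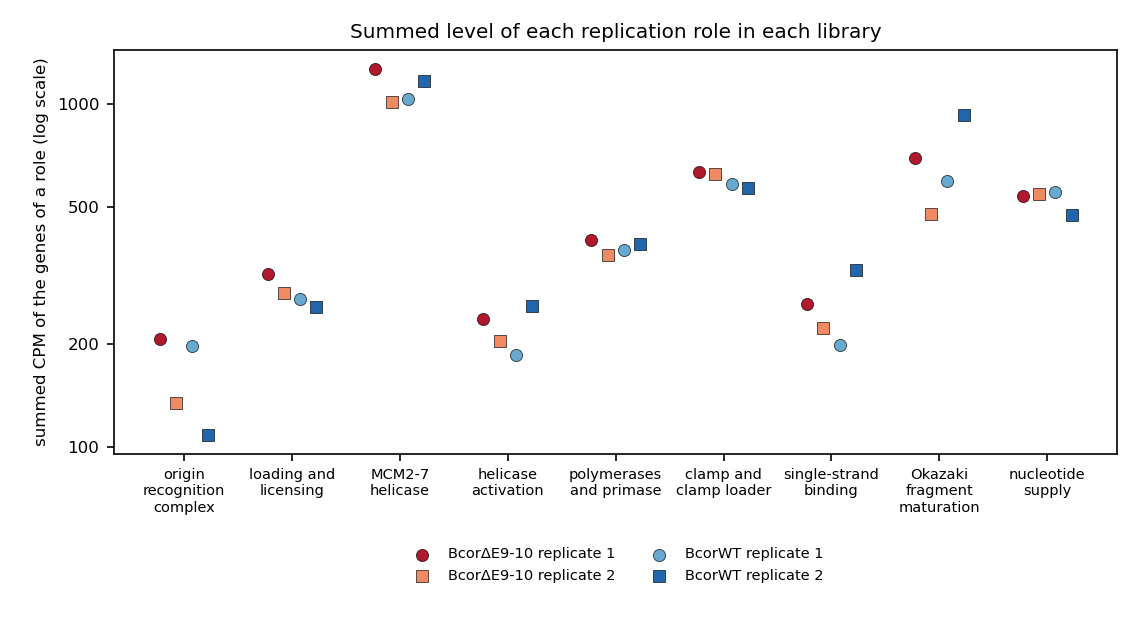
Summed CPM of the genes of each replication role in each library, on a log axis. Loading and licensing and the clamp group are the roles in which both BcorΔE9-10 libraries lie above both BcorWT libraries, by 280.5 to 319 against 256 to 270.4 CPM and 626 to 634 against 570 to 586 CPM. With 2 libraries against 2, a permutation test of such a sum cannot go below p = 0.333.

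The sliding clamp Pcna, which tethers the polymerases, was at 168 and 205 CPM against 173 and 148 CPM (log2 fold change 0.22, SE 0.32, and -0.03 after the GC correction). A processed pseudogene, Pcna-ps2 (chr19:9283380-9284160), is 99.2% identical to Pcna over 781 bases and had 19 and 248 counts against 90 and 17, beside 908 and 1255 against 593 and 785 for Pcna. Reads of so similar a sequence can be assigned to either gene, and Pcna is uncertain to that extent. With the pseudogene added, Pcna stood at 171 and 245 CPM against 199 and 151 CPM, and the genotypes still overlapped.

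The clamp loader, replication factor C, opens Pcna and closes it around DNA. Rfc1, its large subunit, was at 145 and 133 CPM against 110.1 and 78.3 CPM, without overlap (log2 fold change 0.56, SE 0.33). Rfc2 was at 143 and 126 CPM against 122 and 215 CPM, and its log2 fold change of -0.32 (SE 0.37) became 0.15 without BcorWT replicate 2. Rfc3 was at 45.3 and 42.5 CPM against 52.6 and 27.9 CPM, Rfc4 at 23.8 and 18.9 CPM against 21.03 and 11.9 CPM, and Rfc5 at 109 and 101 CPM against 107 and 89.6 CPM. BcorWT replicate 2 was the highest library for Rfc2 and the lowest for Pcna and the other 4 subunits.

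The subunits of replication protein A, which coats single-stranded DNA, differed most between the BcorWT libraries (median absolute log2 difference 0.82). Rpa3 (ENSMUSG00000012483, chr6:8255936-8259173, minus strand), the smallest subunit, had 29 and 127 counts in the BcorΔE9-10 libraries and 39 and 6 in BcorWT, or 5.36, 20.7, 11.4 and 1.13 CPM. The log2 difference between the replicates was 1.77 in BcorΔE9-10 and -2.54 in BcorWT, each larger than the log2 fold change between the genotypes of 1.12 (SE 0.97, 95% interval -1.13 to 3.37). It became -0.18 without BcorΔE9-10 replicate 2 and 3.51 without BcorWT replicate 1. Rpa1, the large subunit that holds the DNA, was at 56.7 and 49.2 CPM against 48.2 and 79.6 CPM, and Rpa2 at 198 and 152 CPM against 139 and 247 CPM. In Rpa1 and Rpa2 BcorWT replicate 2 was the highest library, in Rpa3 the lowest.

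Okazaki fragments are trimmed by the flap nuclease Fen1 and sealed by the ligase Lig1. Lig1 was at 632 and 391 CPM against 528 and 891 CPM (log2 fold change -0.47, SE 0.41, but -0.0469 without BcorWT replicate 2 and -0.80 without replicate 1), with replicates of a genotype further apart than the genotype means of 512 ± 171 and 710 ± 256 CPM (SD, n = 2). Fen1 was at 65.1 and 86.7 CPM against 68.0 and 39.7 CPM (log2 fold change 0.50, SE 0.37, with 0.16 and 0.93 without BcorWT replicates 2 and 1). Fen1 shares 1909 exon bases with the antisense gene Gm10143, whose 365, 545, 238 and 219 counts lie within 3.65% of the 352, 532, 233 and 211 counts of Fen1, and which of the genes the reads come from was not tested.

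Nucleotide supply had summed levels of 539 and 547 CPM in the BcorΔE9-10 libraries and 552.5 and 476 CPM in BcorWT. Rrm1, the large subunit of ribonucleotide reductase, was at 121 and 130 CPM against 110.1 and 60.0 CPM, without overlap (log2 fold change 0.56, SE 0.37, with 0.19 and 1.06 without BcorWT replicates 2 and 1). Its partner Rrm2, the subunit whose amount limits the enzyme in S phase, was at 86.1 and 97.6 CPM against 88.8 and 79.4 CPM. Tyms, which makes thymidylate, was at 55.1 and 54.6 CPM against 57.2 and 56.6 CPM, the tightest of the 47 genes within each genotype. Tk1, the thymidine kinase of dividing cells, was at 60.1 and 44.3 CPM against 49.6 and 73.95 CPM (log2 fold change -0.25, SE 0.35). Dut, which keeps uracil out of DNA, was at 217 and 221 CPM against 247 and 206 CPM.

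The result depended on which BcorWT library stood for the control. Without BcorWT replicate 2 no gene of the 47 had an unadjusted p under 0.05 in edgeR (background 5.71%), and 35 had a log2 fold change above 0. Without BcorWT replicate 1, when the remaining BcorWT library is taken to vary like the BcorΔE9-10 libraries, 17 genes had an unadjusted p under 0.05 (background 25.0%) and 2 an adjusted p under 0.05 (background 4.94%). The 11 higher genes were Orc2, Orc3, Orc4, Orc6, Mcm4, Gins1, Rfc1, Rfc4, Rpa3, Fen1 and Rrm1, and the 6 lower genes were Mcm2, Gins2, Pold1, Pold2, Rfc2 and Lig1. Orc3 then had a log2 fold change of 1.71 (adjusted p = 0.0296) and Mcm2 of -1.20 (adjusted p = 0.0412), both by edgeR, against 0.66 and -0.19 without BcorWT replicate 2. Over all alternatives the adjusted p ran from 0.0296 to 1.00 for Orc3 and from 0.0412 to 1.00 for Mcm2. Over the whole table, 3013 of 12063 genes passed the unadjusted limit and 596 the adjusted limit. Without BcorΔE9-10 replicate 1, 2 of the 47 genes had an unadjusted p under 0.05 (background 2.01%), and without BcorΔE9-10 replicate 2 none had (background 3.1%). The genotypes then did not overlap for 31 genes without BcorΔE9-10 replicate 1 (background 58.8%) and 28 without replicate 2 (background 58.2%), and for 38 without BcorWT replicate 1 (background 81.4%) and 28 without replicate 2 (background 69.1%).

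Base composition at the 3′ end, where these libraries were primed, ran along with this difference. The GC content of the last 300 transcript bases was known for all 47 genes and ranged from 23.3% in Mcm4 to 57.0% in Pold1. The 19 genes that were higher in BcorWT replicate 2 than in replicate 1 had a median GC content of 45.0%, and the 28 lower genes a median of 39.0%. Across the 47 genes the difference between the BcorWT libraries had a Pearson correlation of 0.59 and a Spearman correlation of 0.62 with GC content, against 0.37 and 0.41 over 11948 genes. For the log2 fold change between the genotypes the values were -0.53 and -0.59, against -0.32 and -0.39, and for the difference between the BcorΔE9-10 libraries -0.21 and -0.38, against -0.12 and -0.15. These correlations are across genes of the same libraries, which are not independent replicates, and are given as a description. After a correction of each library for GC content, chosen after the data were seen, 29 of the 47 genes had a log2 fold change above 0, with a median of 0.08. Orc3 then stood at 1.00, Mcm2 at -0.85, Orc1 at 0.41 and Mcm4 at 0.01.

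**Figure D4:**
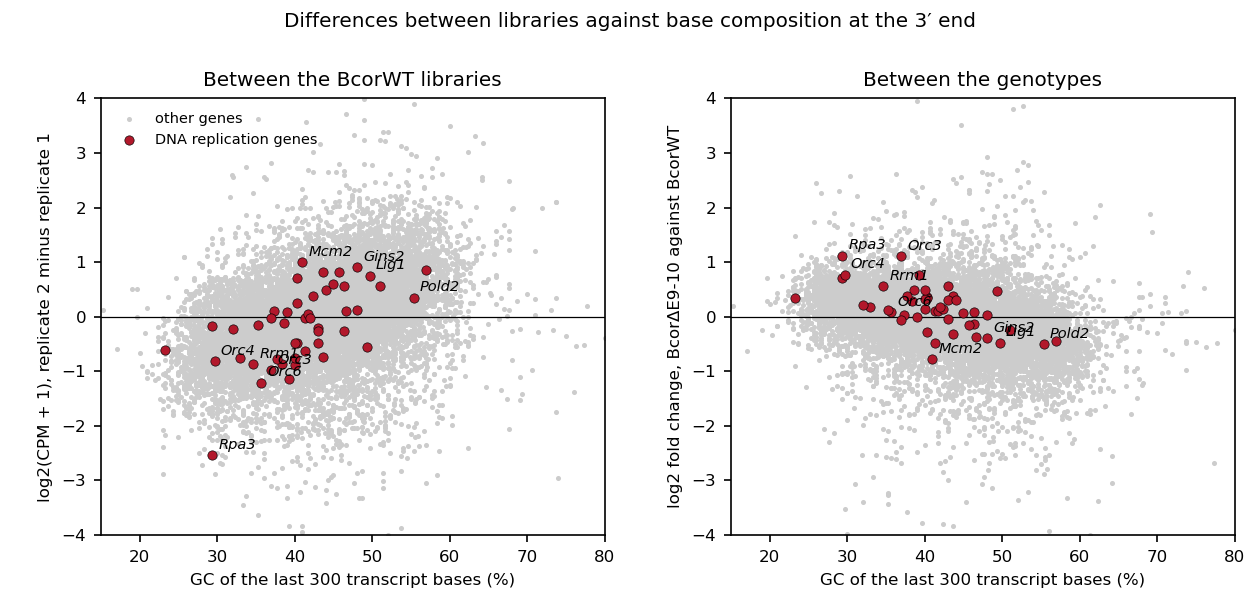
GC content of the last 300 transcript bases (x axis, percent) against the log2(CPM + 1) difference of BcorWT replicate 2 minus replicate 1 (left) and the log2 fold change between the genotypes (right). Replication genes are red and other genes grey, and genes beyond 4 on either side of 0 are not drawn. The red points climb with GC content on the left and descend on the right.

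Several of the 47 genes share exon bases with a neighbour. Over the table, 162 of 1050 gene pairs with shared exon bases had counts within 15% of each other in every library (at least 20 counts), 106 of them among the 859 pairs on opposite strands, against 0 of 245 pairs that overlap without shared exon bases. The strand setting of the counting is not given in the sources used here. Among the 47 genes, only Gins2 with Gse1 and Fen1 with Gm10143 were that close in every library. Apart from Orc5, Gins2 and Fen1, the exons of Orc2 overlap Nif3l1, those of Orc4 Acvr2a and Mbd5, and those of Orc6 Vps35. Mcm7 overlaps Cops6 and Ap4m1, Cdc45 overlaps Ufd1, Rfc2 overlaps Lat2, Rfc4 overlaps Eif4a2, Rfc5 overlaps Wsb2 and Tk1 overlaps Afmid. Most of these differ widely in counts, as Rfc4 with 129 and Eif4a2 with 1583 in BcorΔE9-10 replicate 1. Mbd5 is closer, as it had 67 and 79 counts against 36 and 34, beside 91 and 87 against 41 and 34 for Orc4. Nif3l1 had 92 and 120 counts against 63 and 70, beside 149 and 152 against 87 and 79 for Orc2. Vps35 was close in the BcorΔE9-10 libraries only, with 203 and 251 counts against 93 and 74, beside 245 and 308 against 217 and 143 for Orc6. How many of the reads of each gene come from its neighbour was not tested.

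**Figure D5:**
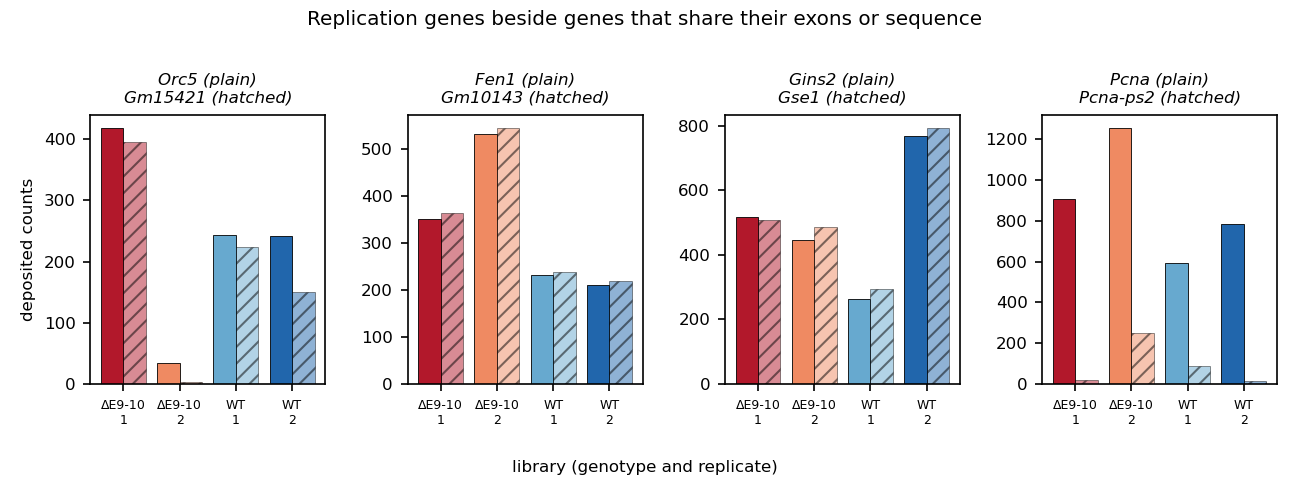
Deposited counts of Orc5, Fen1, Gins2 and Pcna (plain bars) and of a gene that shares their exons or sequence (hatched bars) in each library. Fen1 and Gins2 follow Gm10143 and Gse1 in all 4 libraries, Orc5 follows Gm15421 in 3 of them, and Pcna-ps2 varies from 17 to 248 counts.

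A further 38 genes of replication, which protect forks, remodel chromatin behind them or feed the nucleotide pool, were all measured. Their levels summed to 2609 and 2533 CPM in the BcorΔE9-10 libraries and to 2384 and 2323 CPM in BcorWT, so the sums of the genotypes did not overlap, with a log2 ratio of the genotype means of 0.13. Of the 38 genes none passed an adjusted p under 0.05, 24 had a log2 fold change above 0 (47.7% of all genes) and the median was 0.10, or 0.0445 after the GC correction. Slbp, the binding protein of histone messages, was at 104 and 106 CPM against 23.9 and 75.1 CPM, and its log2 fold change of 1.07 (SE 0.50) was the highest of the list. Here BcorWT replicate 1 was the low library. Topbp1, an activator of the replication checkpoint, was at 109 and 102 CPM against 94.3 and 46.1 CPM, and Tipin, a fork protection protein, at 75.96 and 86.1 CPM against 56.7 and 58.9 CPM. At the other end, the deaminase Dctd was at 3.14 and 4.89 CPM against 5.84 and 9.79 CPM, and the polymerase delta subunit Pold4 at 9.80 and 9.78 CPM against 14.02 and 17.7 CPM. The genotypes did not overlap in these 5 genes, which come from the ends of the list. Over the 38 genes, 8 were higher and 6 lower without overlap, against 16.8% and 17.1% of all genes.

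The regulators that gate S phase were measured for 25 of 26 listed genes, with a median log2 fold change of 0.08 and 16 above 0 (47.7% of all genes). The median was -0.0723 without BcorWT replicate 2 and 0.50 without BcorWT replicate 1. None passed an adjusted p under 0.05. Cdk4, the kinase that inactivates Rb1, was at 111 and 92.3 CPM against 168 and 217 CPM, a log2 fold change of -0.92 (SE 0.33) with an unadjusted p of 0.0228 and an adjusted p of 0.945 in edgeR. Cdkn1a, which encodes the inhibitor p21, was at 33.5 and 23.8 CPM against 14.02 and 14.9 CPM, a log2 fold change of 0.98 (SE 0.36, unadjusted p = 0.026, adjusted p = 0.945 in edgeR). Of the E2F genes, E2f1 was at 67.5 and 45.8 CPM against 69.8 and 84.7 CPM and E2f2 at 33.1 and 47.9 CPM against 49.4 and 65.3 CPM, both lower without overlap, while E2f3, E2f4, E2f5, E2f6, E2f7 and E2f8 overlapped. Over the 25 regulators, 4 were higher and 4 lower without overlap, against 16.8% and 17.1% of all genes. The repressor E2f8 was at 100.4 and 136 CPM against 115 and 52.3 CPM. The regulators named here were chosen after their values were seen.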

How the data were processed

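The deposited values are gene counts of 4 Quant-seq 3′ libraries. To make them, the authors filtered reads on quality, trimmed with cutadapt, aligned to mm10 by HISAT2 and assigned reads to genes by subread, without normalization. For BcorΔE9-10 replicate 2 and BcorWT replicate 1 the deposited values were taken for estimated counts (Gm4430 alone is not whole there) and rounded. In R 4.3.3, edgeR 4.0.16 was used on all 12067 genes (the study used limma) with TMM factors, a quasi-likelihood F test of genotype and Benjamini-Hochberg adjustment. The standard error is the log2 fold change divided by the square root of F, and the 95% interval follows from it. Totals ranged from 3825289.5 to 6253100.5 counts, and 3 counts were 0.480 to 0.784 CPM. 

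GC content came from the longest GENCODE M21 transcript, and pseudogenes were matched by blastn 2.17.0 at 90% identity or more over at least 150 bases. The alternatives were DESeq2 1.42.0 and its size factors, limma-voom (limma 3.58.1), 10 counts or more in every library, no filter, a prior count of 2, the replicate number as a block, and each library left out. The run with no filter repeats the main fit, as the main filter kept all 12067 genes. The GC correction, alone and with the block, and the removal of Gm42418 were added after the data were seen. Members and lists were chosen with earlier results of these data known. Given in full were the highest and the lowest log2 fold change of each role, members without overlap and members past a log2 fold change of 0.5 with an unadjusted p under 0.05, and of the other replication genes at most the 3 highest and 3 lowest.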

Additional observations from a re-analysis of the deposited data

How the results depend on the processing

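With all 4 libraries, 0 of the 47 replication genes passed the adjusted limit in each alternative run (edgeR, DESeq2 and limma-voom), and 28 to 32 had a log2 fold change above 0, with medians from 0.08 to 0.16. Leaving out each library gave 0 to 2 genes past the adjusted limit, 0 to 17 past the unadjusted limits, and 28 to 38 without overlap, where a group of 1 library overlaps less often by construction, against 2.01% to 25.0% and 58.2% to 81.4% of all genes. Over the whole table, the 2 called genes became 5 with at least 10 counts in every library, 14 with the replicate block, 26 with the GC correction and the block, 4 with limma-voom, 43 with DESeq2, and 6 to 596 without a library.

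Libraries with the same number did not deviate together (correlation -0.09), and the labels give no shared animal or day to a number, so the numbers were not taken to pair the libraries. With the replicate block the median of the 47 genes was 0.16. The median of the other replication genes was 0.0445 after the GC correction and 0.0784 to 0.14 without a library, that of the mitosis genes -0.25 after the GC correction, and that of the S phase regulators -0.0723 to 0.50 without a library. Leaving out a single library turned the sign of the log2 fold change of 21 of the 47 genes: Orc5 (-3.34 to 0.42), Orc6 (-0.41 to 0.82), Mcm5 (-0.39 to 0.18), Mcm7 (-0.18 to 0.23), Cdc45 (-0.0486 to 0.35), Gins2 (-0.78 to 0.14), Gins3 (-0.12 to 0.82), Gins4 (-0.26 to 0.42), Pola1 (-0.15 to 0.61), Prim1 (-0.0174 to 0.0890), Prim2 (-0.0703 to 0.0663), Pold1 (-0.82 to 0.0531), Pole3 (-0.0573 to 0.37), Rfc2 (-0.68 to 0.15), Rfc3 (-0.26 to 0.65), Rfc5 (-0.0336 to 0.23), Rpa1 (-0.59 to 0.14), Rpa2 (-0.50 to 0.33), Rpa3 (-0.18 to 3.51), Tk1 (-0.51 to 0.0711) and Dut (-0.17 to 0.0855). The GC correction, alone or with the block, turned that of 6 genes. These were Orc6 (-0.0306), Pcna (-0.0301, and -0.0274 with the block), Prim1 (-0.11, and -0.1000 with the block), Rrm2 (-0.0521, and -0.0504 with the block), Tk1 (0.0012) and, with the block only, Mcm4 (-0.0011). The cause was not tested. Depth limits Gins1 and Rpa3 most, with 19 and 6 counts in BcorWT replicate 2.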

Other observations

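Genes of mitosis, 33 of 33 measured, had a median log2 fold change of -0.03 (0.11 without BcorWT replicate 2 and -0.25 after the GC correction), with 15 above 0 (47.7% of all genes) and 0 past an adjusted p under 0.05 in edgeR (0.0166% of all genes), where 0 passed an unadjusted p under 0.05 (4.42% of all genes). The genotypes did not overlap for 8 higher and 5 lower genes of the 33, against 16.8% and 17.1% of all genes. Plk1, the polo kinase of mitotic entry, was at 167 and 187 CPM in the BcorΔE9-10 libraries and 202 and 465 CPM in BcorWT. Cdk1, the mitotic kinase, was at 228 and 234 CPM against 190 and 494 CPM, and Cdca8, a subunit of the chromosomal passenger complex, at 193 and 195 CPM against 192 and 507 CPM. In these 3 genes BcorWT replicate 2 was high and the other 3 libraries lay close together, as in Mcm2. Bub1, a checkpoint kinase, was at 12.2 and 17.8 CPM against 12.3 and 4.70 CPM, with BcorWT replicate 2 low. Top2a, the topoisomerase of S and G2 phase, was at 705 and 833 CPM against 560 and 670 CPM, without overlap. These genes were chosen after their values were seen.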
